A study of Homo sapiens with 3 samples.

Results

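The galectins are a family of lectins that bind beta-galactosides, and the genes described here are those of 7 galectins (LGALS1, LGALS2, LGALS3, LGALS4, LGALS7, LGALS8 and LGALS9) together with LGALS3BP, the gene of a secreted glycoprotein that galectins bind. The 8 genes were selected by symbol, with expression values of these 3 lines already known, and 7 of them were listed among the 16149 genes with a value in at least 1 library. LGALS7 was listed in none. Messenger RNA was sequenced from 3 cultured lines of human hepatocellular carcinoma (HCC), 1 library each. The parent is HCCLM3, a line established from a xenografted HCC, and is labelled with low metastasis ability. The methods of the study describe it as HCCLM3 marked with a red fluorescent protein and, unlike the label, as highly metastatic. Subclone1 is labelled as more metastatic, to the lung, and subclone2 as able to reach both the lung and the celiac lymph node. According to the methods of the study, the subclones were grown from single cells of lung or lymph node metastases that the parent formed in nude mice, so each subclone is 1 clone, and the labels do not say which clone was sequenced. All of the lines were kept in DMEM, and neither treatment nor genetic targeting differed between them.

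With 1 library for each line, no test between lines was possible, and no p-value is given. Levels are RPKM, a read count corrected for gene length and for library size. The 95% intervals (exact Poisson for a level, exact Clopper-Pearson for a fold) are based on reads recovered from the RPKM steps, out of 4488825 to 4725150 reads per library, and cover counting error only. Differences between cultures, clones and library preparations are not in these intervals. ACTB had 3189, 3496 and 3205 RPKM in the parent, subclone1 and subclone2. The label of the cells was checked against 9 hepatocyte markers, whose summed level was 24.5, 113 and 106 RPKM in this order. Albumin (ALB) had 2.46 RPKM in the parent against 49.5 and 68.8 RPKM in the subclones, whereas APOA1, SERPINA1 and TTR stayed below 1 RPKM in every library, so several defining products of hepatocytes were near absent at the level of mRNA.

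Galectins share a carbohydrate recognition domain, and they are grouped by its arrangement. Prototype galectins (galectin-1, galectin-2 and galectin-7) hold a single domain and often form dimers, tandem-repeat galectins (galectin-4, galectin-8 and galectin-9) join a pair of different domains by a linker, and galectin-3 is the chimera type, with a tail that lets it form oligomers. They are made in the cytosol without a signal peptide, leave the cell by an unconventional route, and crosslink N-acetyllactosamine (LacNAc) on glycoproteins such as integrins, laminins and LAMP proteins. Inside the cell, galectin-3, galectin-8 and galectin-9 bind glycans that become exposed on damaged endosomes and lysosomes. In normal tissues galectin-2 and galectin-4 are known mainly from the epithelium of the digestive tract, and galectin-7 from stratified epithelia.

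The promoters of the 3 galectin genes that were at least 2-fold higher in both subclones (LGALS4, LGALS2 and LGALS9) are shown with those of LGALS3BP and LGALS3, which were less than 2-fold different, so that the sequences of both kinds can be read side by side. The sequences are from RefSeq (GRCh38.p14, whereas the deposited values were made on hg19), run 5′ to 3′ on the strand of the gene, and hold 250 bases before the transcript start and its first 10 bases. Capitals mark matches to the motifs searched.
LGALS4: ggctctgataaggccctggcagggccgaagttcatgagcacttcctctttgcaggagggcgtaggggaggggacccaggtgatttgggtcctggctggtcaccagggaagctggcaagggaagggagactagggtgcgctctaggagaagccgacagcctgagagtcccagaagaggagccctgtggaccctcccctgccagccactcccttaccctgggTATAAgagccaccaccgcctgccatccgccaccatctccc
LGALS2: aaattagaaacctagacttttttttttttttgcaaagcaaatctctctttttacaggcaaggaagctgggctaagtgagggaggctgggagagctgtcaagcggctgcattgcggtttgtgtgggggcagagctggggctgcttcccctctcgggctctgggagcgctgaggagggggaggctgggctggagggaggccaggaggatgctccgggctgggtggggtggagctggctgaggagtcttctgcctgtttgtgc
LGALS9: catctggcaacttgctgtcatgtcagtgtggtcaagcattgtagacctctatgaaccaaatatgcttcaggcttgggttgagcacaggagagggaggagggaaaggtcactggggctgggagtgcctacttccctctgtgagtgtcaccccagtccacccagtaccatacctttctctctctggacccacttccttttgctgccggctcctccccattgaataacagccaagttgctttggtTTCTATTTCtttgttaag
LGALS3BP: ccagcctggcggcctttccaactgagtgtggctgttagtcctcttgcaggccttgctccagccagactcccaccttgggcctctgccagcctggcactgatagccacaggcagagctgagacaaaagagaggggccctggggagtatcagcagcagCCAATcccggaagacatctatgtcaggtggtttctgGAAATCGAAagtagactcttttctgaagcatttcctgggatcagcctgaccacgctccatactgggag
LGALS3: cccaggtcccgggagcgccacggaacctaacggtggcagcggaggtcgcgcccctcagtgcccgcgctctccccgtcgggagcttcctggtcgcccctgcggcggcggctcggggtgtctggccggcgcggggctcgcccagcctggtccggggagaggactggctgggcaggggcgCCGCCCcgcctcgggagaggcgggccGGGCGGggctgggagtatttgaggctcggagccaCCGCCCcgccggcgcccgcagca

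The LGALS4 sequence is chr19:38812936-38813195 (minus strand), LGALS2 is chr22:37580078-37580337 (minus strand), LGALS9 is chr17:27630938-27631197 (plus strand), LGALS3BP is chr17:78979914-78980173 (minus strand) and LGALS3 is chr14:55129002-55129261 (plus strand). The promoter table covered 7 of the 8 genes with 9 promoters, 3 of them for LGALS8, and motifs were searched on both strands over 300 bases (250 before and 50 after the start). The motifs were chosen with these genes in view, and no matches of different motifs overlapped in the 9 promoters. The core of the TATA box (TATAA) lay 30 bases before the start of LGALS4 and, on the opposite strand, 232 and 58 bases before the start of 1 of the promoters of LGALS8, and is found in 20.4% of all 35116 promoters of this length. The core of the interferon-stimulated response element (GAAANNGAA) lay 58 bases before the start of LGALS3BP and, on the opposite strand, 8 bases before the start of LGALS9. It is found in 8.11% of all promoters. The CCAAT box was matched 94 bases before the start of LGALS3BP only, and is found in 34.6% of all promoters. The GC box (GGGCGG) was matched 3 times in LGALS3, and once each in LGALS7 and in 1 of the promoters of LGALS8, and is found in 45.0% of all promoters. The AP-1 site (TGANTCA, 7.71% of all promoters) was matched in LGALS7. The GATA site (AGATAA, 10.3%), the HNF1 half-site (GTTAAT, 6.88%) and the CDX site (TTTATTG, 4.004%) had no match in the 9 promoters. Only these letters were searched, so other forms of the sites were not counted. The printed promoter of LGALS4 holds TGATAA, and that of LGALS3BP holds TGATAG. The GAS element (TTCNNNGAA, 7.66%) and the NF-kB site (GGANTTNCC, 4.27%) had none either. The ratio of observed to expected CpG was 0.238 for LGALS4, 0.283 for LGALS2, 0.104 for LGALS9 and 0.166 for LGALS3BP, all below the median of all promoters (0.579), and 0.848 for LGALS3, with 39 CpG in its 300 bases. A match to these letters is a description of the sequence and not evidence of binding.

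All of the 7 listed genes had a higher RPKM in each subclone than in the parent, and 3 of them, LGALS2, LGALS4 and LGALS9, were at least 2-fold higher in both. None was at least 2-fold lower. In the background of 11370 genes that averaged 1 RPKM or more, 4.9% exceeded the parent by 2-fold or more in subclone1, whereas 1.82% lay below it by as much. The shares for subclone2 were 5.33% above and 2.16% below. Higher than the parent by any amount were 50.4% of these genes in subclone1 and 53.5% in subclone2. Because the genes were chosen with such ratios known, and because both comparisons use the same parent library, these counts are descriptions. The median log2 ratio over the 7 genes was 0.47 for subclone1 and 0.56 for subclone2, beside 0.00 and 0.04 over all 11370 genes. LGALS2, which had no read in the parent, lies above these medians at its lower bound too. Setting it at that bound therefore cannot change them. The interval of the fold excluded 1 for 6 of the 7 genes in subclone1 and for 5 of the 7 in subclone2. The share of all genes with such an interval was not counted. Between the subclones no member was past 2-fold, where 1.42% of all genes were higher and 1.39% lower in subclone2 than in subclone1, and 2 members were higher and 5 lower in subclone2, beside 56.5% of all genes higher. Of the 5 lower members, LGALS3, LGALS9 and LGALS3BP turned to slightly higher when the libraries were divided by ACTB or GAPDH.

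**Figure D1:**
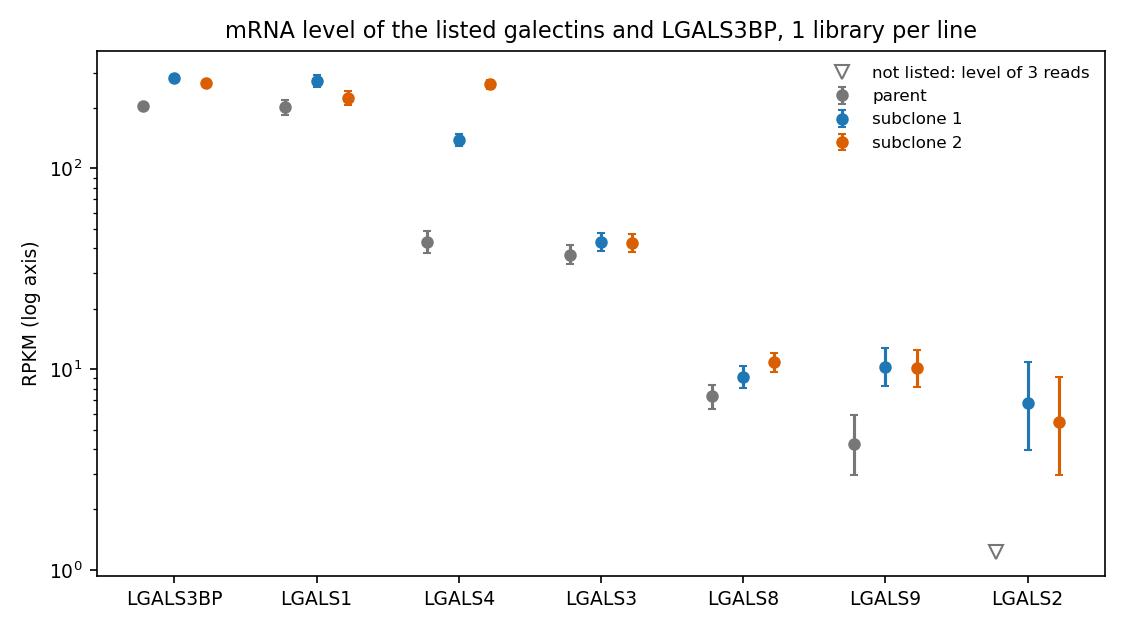
RPKM of each listed gene (log axis) in the parent, subclone1 and subclone2, 1 library each, with exact 95% Poisson intervals for counting error. The open triangle is the level that 3 reads of LGALS2 would give in the parent (1.23 RPKM), where it was not listed. LGALS4 is separated between all of the lines, from 43.1 to 262 RPKM, while LGALS3 lies between 37.1 and 43.1 RPKM.

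LGALS4, the gene of the tandem-repeat galectin-4, showed the widest spread among the galectins detected in every line. The parent held 250 reads of it, a level of 43.1 RPKM (38.0 to 48.8). The level was 138 RPKM in subclone1 (129 to 148, 820 reads) and 262 RPKM in subclone2 (250 to 276, 1601 reads). The lines were ordered parent, subclone1, subclone2, and no intervals overlapped. The fold over the parent was 3.19 (2.77 to 3.69) in subclone1 and 6.08 (5.32 to 6.98) in subclone2. Subclone2 was 1.90-fold (1.75 to 2.07) above subclone1, the largest ratio among the 7 genes in that comparison, and was past 2-fold when the libraries were divided by ACTB or GAPDH. Its rank among listed genes, counted from the most abundant, was 1744 in the parent, 434 in subclone1 and 209 in subclone2. Its transcripts shared no window of 50 bases with another gene, which sets it apart from LGALS9 and LGALS7 in how safely reads can be assigned.

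LGALS2, the gene of the prototype galectin-2, was not listed in the parent, had 6.79 RPKM in subclone1 (3.96 to 10.9, 17 reads) and 5.46 RPKM in subclone2 (2.98 to 9.16, 14 reads). Both subclones were above the level that 0 reads in the parent allow, with an upper limit of 1.51 RPKM. Against a floor of 3 reads in the parent library (1.23 RPKM), and with the level of the subclone taken as exact, it was at least 5.52-fold higher in subclone1 and at least 4.43-fold higher in subclone2. With the counting error of the subclone included, the exact intervals of the fold start lower, at 4.02 and 3.15. The subclones did not differ beyond counting error, with a ratio of 0.803 and a wide interval (0.367 to 1.73). At this depth the parent could hold a low level of LGALS2 mRNA.

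LGALS9, which encodes another tandem-repeat galectin and is known as an interferon-induced gene, had 35 reads in the parent (4.25 RPKM, 2.96 to 5.91), 87 reads in subclone1 (10.3 RPKM, 8.24 to 12.7) and 88 reads in subclone2 (10.1 RPKM, 8.14 to 12.5). The intervals of the subclones overlapped each other and not that of the parent. The folds over the parent were 2.42 (1.62 to 3.69) and 2.39 (1.60 to 3.64), and the ratio of subclone2 to subclone1 was 0.987 (0.725 to 1.34). LGALS9 shares sequence with its copies LGALS9B and LGALS9C, and 20.1% of the 50-base windows of its transcripts are also found in another gene. LGALS9B was not listed and LGALS9C had 1 read, in subclone2, so the level of LGALS9 is uncertain to the extent that the counting assigned reads of the copies to it.

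LGALS3BP was the most abundant of the 7 genes in each library, at 204 RPKM for the parent (195 to 213 from 2081 reads), 283 RPKM for subclone1 (272 to 293 from 2966 reads) and 267 RPKM for subclone2 (257 to 277 from 2868 reads). Both subclones were above the parent. The fold was 1.39 (1.31 to 1.47) in subclone1 and 1.31 (1.24 to 1.39) in subclone2. Subclone2 was 0.943 times subclone1 (0.896 to 0.993), a ratio that turned to slightly above 1 when the libraries were divided by ACTB or GAPDH.

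LGALS1, the gene of the dimeric prototype galectin-1, was measured from 530 reads in the parent (201 RPKM, 185 to 219), 736 reads in subclone1 (272 RPKM, 253 to 293) and 622 reads in subclone2 (225 RPKM, 207 to 243). Only subclone1 stood apart from the other lines. Its fold over the parent was 1.35 (1.21 to 1.51), while that of subclone2 was 1.11 (0.991 to 1.25), and subclone2 was 0.824 times subclone1 (0.740 to 0.919). It was the one galectin for which subclone1 exceeded subclone2 with an interval that excluded 1.

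LGALS8 and LGALS3 were less than 2-fold different in each comparison. LGALS8, whose product recognizes damaged endosomes and recruits an autophagy receptor, had 7.31 RPKM in the parent (206 reads), 9.15 RPKM in subclone1 (265 reads) and 10.8 RPKM in subclone2 (321 reads), and the folds over the parent were 1.25 (1.04 to 1.51) and 1.48 (1.24 to 1.77). LGALS3, the chimera-type galectin, had 37.1 RPKM in the parent (329 reads), 43.1 RPKM in subclone1 (392 reads) and 42.6 RPKM in subclone2 (397 reads). Its folds over the parent were 1.16 (1.00 to 1.35) and 1.15 (0.988 to 1.33), both with an interval that held 1, so a change in LGALS3 was not detectable at this depth. LGALS7 and its copy LGALS7B were listed in no library. They share 49.2% of the 50-base windows of LGALS7, and reads that fit both may have been dropped in counting, so no upper limit is given for LGALS7.

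**Figure D2:**
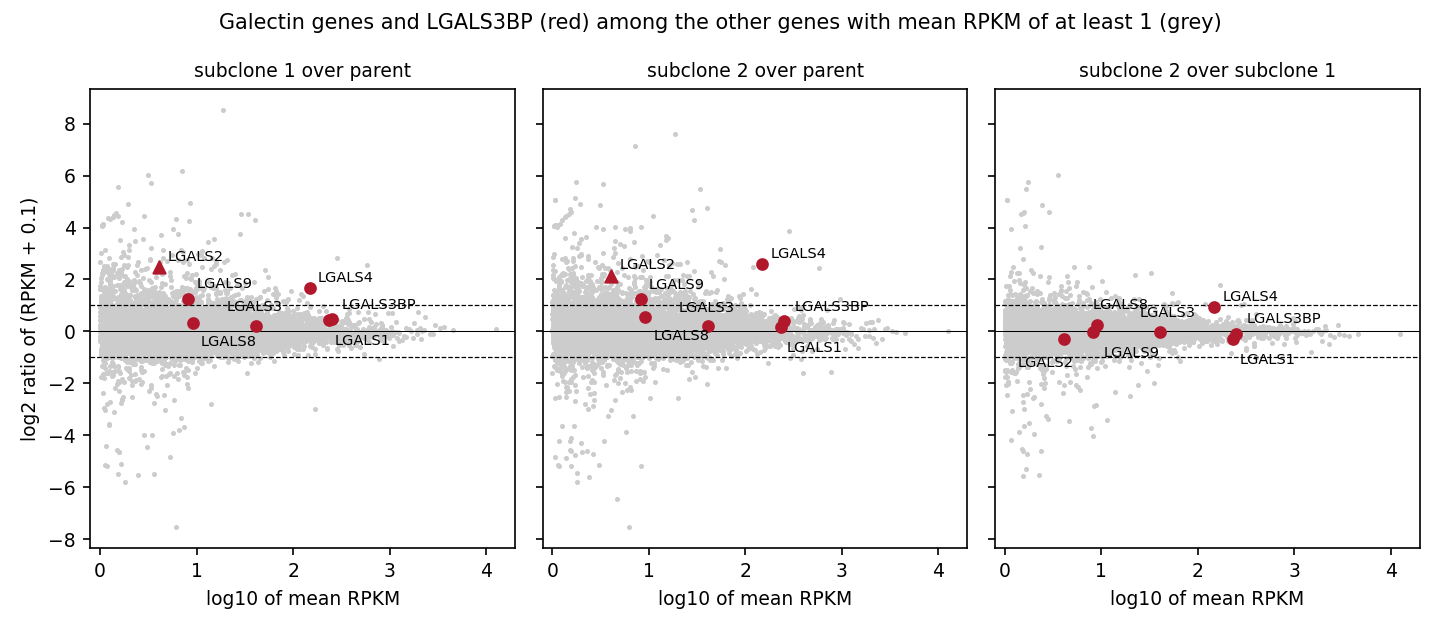
log2 ratio of (RPKM + 0.1) against log10 of the mean RPKM over the libraries, for the galectin genes and LGALS3BP (red) and the other genes that averaged 1 RPKM or more (grey). Dashed lines mark 2-fold, and the triangles for LGALS2 are lower bounds of the log2 fold against 3 reads in the parent. LGALS2, LGALS4 and LGALS9 lie above the upper line in both comparisons with the parent and no red point lies past 2-fold between the subclones.

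The order of the galectins by RPKM changed with LGALS4. In the parent the order was LGALS1, LGALS4, LGALS3, LGALS8 and LGALS9, in which only LGALS4 and LGALS3 had overlapping intervals. In subclone1 it was LGALS1, LGALS4, LGALS3, LGALS9, LGALS8 and LGALS2, and the intervals of LGALS9, LGALS8 and LGALS2 all overlapped each other. In subclone2 LGALS4 was above LGALS1 by 1.17 times, without overlap, and it could not be told from LGALS3BP by counting (262 and 267 RPKM). Among the lower galectins of subclone2, LGALS8 and LGALS9 overlapped, as did LGALS9 and LGALS2. This order is per length and depends on the gene lengths the authors used, which the values imply to be 1973 bases for LGALS3 and 6281 bases for LGALS8.

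Galectin mRNA was mostly the prototype LGALS1 in the parent, whereas LGALS4 held the largest share in subclone2. The summed RPKM of the galectins was 293 in the parent, 480 in subclone1 and 556 in subclone2. LGALS1 held 68.7%, 56.8% and 40.4% of the sum in this order, and LGALS4 held 14.7%, 28.7% and 47.2%. LGALS3 held 12.7%, 8.99% and 7.66%, and each other galectin held under 3% in every library. Counted as reads, the galectins had 1350, 2317 and 3043 of the reads of these libraries.

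**Figure D3:**
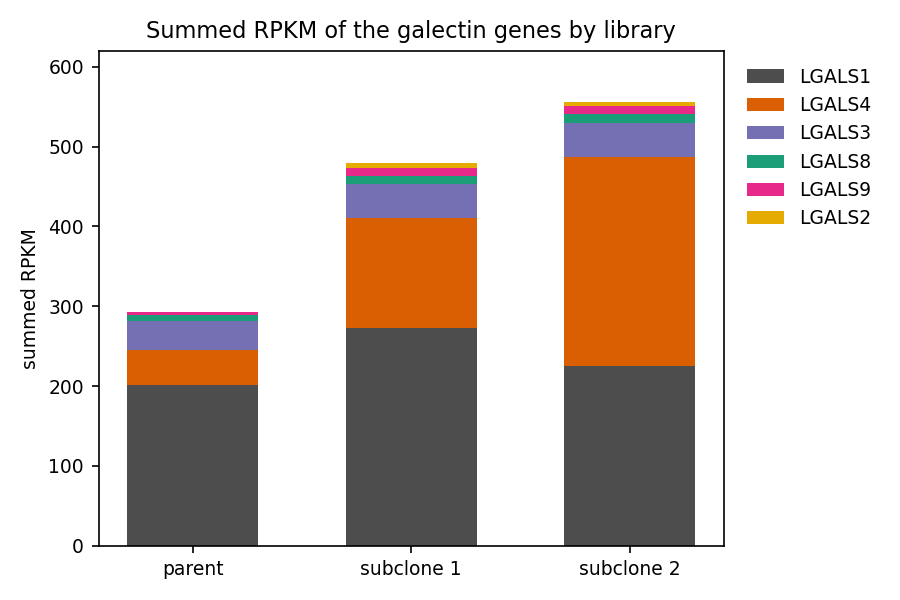
Summed RPKM of the galectin genes in each library, stacked by gene, with the axis from 0. The LGALS4 segment grows from 43.1 RPKM in the parent to 138 RPKM in subclone1 and 262 RPKM in subclone2, while the LGALS1 segment stays between 201 and 272 RPKM.

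The genes beside LGALS2, LGALS4 and LGALS9 on their chromosomes were examined to see whether neighbours differed in the same libraries. LGALS2 lies on the minus strand of chromosome 22 and its main transcript has 4 exons. Of its 3 listed neighbours on each side, 5 averaged 1 RPKM or more, and 2 of these were at least 2-fold higher in both subclones. CDC42EP1, which encodes an effector of the GTPase CDC42, had 7.35 RPKM in the parent against 21.1 and 21.4 RPKM in subclone1 and subclone2. SH3BP1, which encodes a GTPase-activating protein for Rac, had 2.06, 4.85 and 7.02 RPKM. Between LGALS2 and SH3BP1, GGA1, an adaptor of vesicle transport, had 5.79, 7.25 and 7.27 RPKM. PDXP on the same side had 9.03, 9.32 and 9.19 RPKM. On the side of CDC42EP1, CARD10 had 4.61, 9.21 and 7.84 RPKM, and MFNG had 0, 0.306 and 0.0994 RPKM. All of these neighbours had a higher value in each subclone than in the parent, by less than 2-fold for GGA1, PDXP and CARD10. The part of a shared region in the difference of LGALS2 was not tested.

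LGALS4 lies on the minus strand of chromosome 19 with 10 exons in its main transcript, and 1 of its 6 neighbours, the calpain gene CAPN12 (1.64, 3.54 and 2.77 RPKM), was at least 2-fold higher in subclone1, and none in subclone2. ECH1, an enzyme of fatty acid oxidation on the other side of LGALS4, had 109, 142 and 170 RPKM, and the actinin gene ACTN4 had 230, 226 and 231 RPKM. LGALS9 lies on the plus strand of chromosome 17, and of its 5 neighbours that averaged 1 RPKM or more none was past 2-fold, with log2 ratios from 0.24 to 0.87 in subclone1 and from 0.19 to 0.66 in subclone2.

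**Figure D4:**
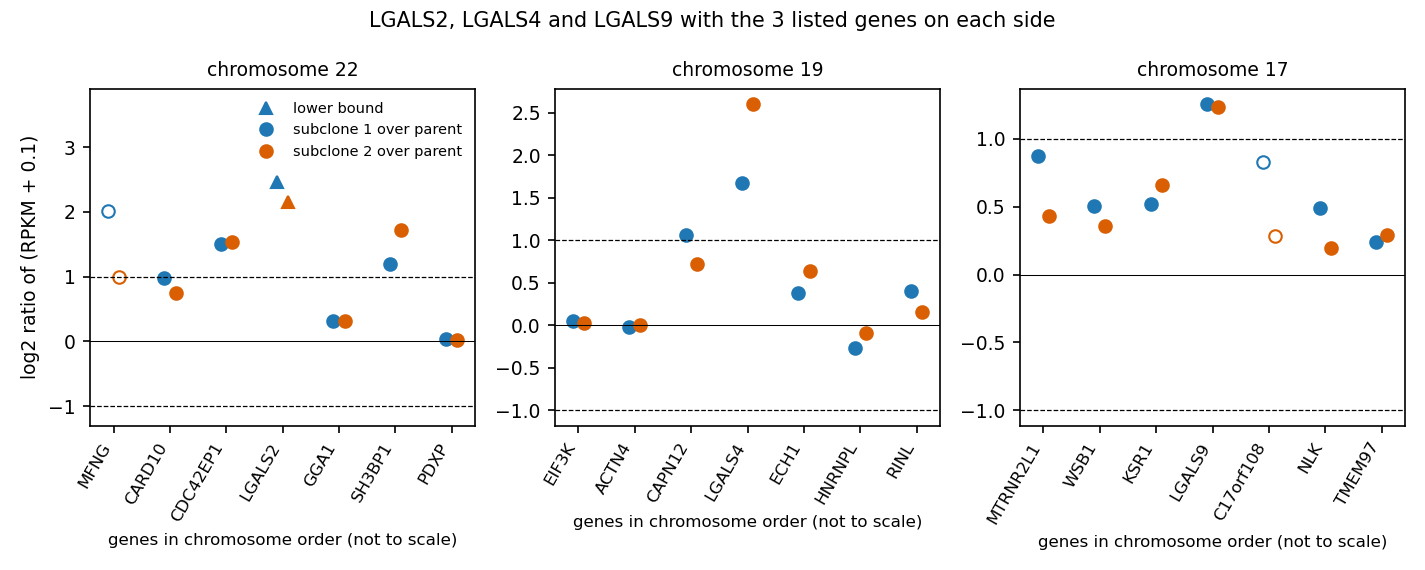
log2 ratio of (RPKM + 0.1) for LGALS2, LGALS4 and LGALS9 and the 3 listed genes on each side, in chromosome order and not to scale. Open circles are genes with a mean RPKM under 1, dashed lines mark 2-fold, and triangles are the lower bounds for LGALS2. CDC42EP1 and SH3BP1 beside LGALS2 lie above the 2-fold line in both subclones, whereas the neighbours of LGALS9 do not reach it.

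The genes whose ratios were nearest to those of the 3 galectins were found by the distance between pairs of log2 ratios over the parent, over 3 libraries that share the parent and without any test. Near to LGALS4 were SCNN1A, a subunit of the epithelial sodium channel (4.71, 15.2 and 28.1 RPKM in the parent, subclone1 and subclone2), and TSPAN8, a tetraspanin (15.8, 49.0 and 101 RPKM). Their distances were 0.05 and 0.09 on the log2 scale. Nearest to LGALS9 were TPPP (0.516, 1.37 and 1.33 RPKM), ANGPTL4 (10.3, 24.4 and 25.5 RPKM) and TMEM81 (0.825, 2.09 and 2.19 RPKM). Nearest to LGALS2 were SAA1, PRAME and MIR614, which had no value in the parent either, so their likeness rests on the same 0 and on the added 0.1 RPKM.

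Lists of fixed members covered other galectins, the genes that make, cap or carry the glycans that galectins bind, the response to damaged endomembranes and interferon-induced genes. Of the 48 genes in these lists that averaged 1 RPKM or more, 4 exceeded the parent by 2-fold or more in subclone1, beside 4.9% of all genes, and these 4 were interferon-induced genes. In subclone2 there were 3, beside 5.33% of all genes, namely ST6GAL1 and the interferon-induced genes IFIT1 and PSMB9. In each subclone 1 gene, MCAM, was at least 2-fold lower. The median log2 ratios of the 48 genes were 0.20 and 0.14. The 11 genes of N-glycan branching and LacNAc synthesis held none past 2-fold, and MGAT4B, a branching enzyme and the most abundant of them, had 72.0, 92.2 and 100 RPKM. ST6GAL1, the enzyme that caps LacNAc with alpha-2,6 sialic acid and thereby masks it from several galectins, had 16.4 RPKM in the parent, 19.0 RPKM in subclone1 and 36.0 RPKM in subclone2. Its fold over the parent was 1.16 (0.944 to 1.44) in subclone1 and 2.20 (1.84 to 2.65) in subclone2, so only subclone2 was above the parent beyond counting error. Subclone2 was 1.89-fold (1.59 to 2.25) above subclone1.

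Of 22 galectin-binding glycoproteins and receptors, 17 averaged 1 RPKM or more. The adhesion molecule MCAM was the single one past 2-fold and was lower in both subclones, with 3.21, 0.716 and 0.572 RPKM. Fibronectin (FN1), the most abundant, had 1625, 1786 and 1034 RPKM, 0.636 times the parent in subclone2 (0.629 to 0.644). None of the 8 genes of the response to damaged endomembranes was past 2-fold, and the most abundant of them, the autophagy receptor SQSTM1, had 518, 491 and 548 RPKM. Of 10 other galectin genes, 2 were listed. LGALSL, the galectin-like gene that the files name HSPC159, had 4.29, 7.57 and 8.32 RPKM, with folds over the parent of 1.76 (1.32 to 2.38) and 1.94 (1.46 to 2.60). The other was LGALS9C with its single read.

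Interferon-induced genes were examined beside LGALS9 and LGALS3BP, which are known to respond to interferon. Of 10 such genes that averaged 1 RPKM or more, 4 were at least 2-fold higher in subclone1 and 2 in subclone2, and none was lower. The shares of all genes that were as much higher were 4.9% and 5.33%. PSMB9, a subunit of the immunoproteasome, had 4.25, 13.7 and 11.5 RPKM. IFIT1, an antiviral RNA-binding protein, had 1.19, 2.89 and 3.61 RPKM from 10, 25 and 32 reads. IFI27 had 5.03, 14.4 and 6.36 RPKM, and IRF9, a subunit of the interferon-activated transcription factor, had 2.49, 5.24 and 3.36 RPKM. Both were at least 2-fold above the parent in subclone1 and not in subclone2. IFI27 was also lower in subclone2 than in subclone1, at 0.443 times (0.248 to 0.768). For IRF9, with 19, 41 and 27 reads, that ratio was 0.642 (0.380 to 1.07), so its subclones did not differ beyond counting error. The most abundant gene of the list, OAS1, had 75.1, 65.1 and 65.9 RPKM, and the median log2 ratios of the 10 genes were 0.51 and 0.35.

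Intestinal epithelial markers were examined beside LGALS4 and LGALS2. Of 5 such markers that averaged 1 RPKM or more, 2 were at least 2-fold higher in subclone1 and 3 in subclone2, beside 4.9% and 5.33% of all genes. The hepatocyte markers had 4 and 3 of 6 past it, and the fibroblast markers 2 and 2 of 3, so such counts were not particular to the intestinal list. The median log2 ratios of the 5 intestinal markers were 0.52 and 1.02, beside 2.06 and 1.25 for the 6 hepatocyte markers. CDH17, the liver-intestine cadherin, had 53.8, 123 and 165 RPKM, and its order of the lines was that of LGALS4. The microvillus gene VIL1 had 5.49, 7.63 and 11.7 RPKM, and the intestinal transcription factor CDX2 had 1.49, 2.18 and 3.14 RPKM, both past 2-fold in subclone2 alone. TFF3, a secreted trefoil peptide, had 0.423, 1.85 and 0.803 RPKM from 2, 9 and 4 reads, and the interval of its fold in subclone1 held 1. The most abundant, KRT20, had 341, 332 and 525 RPKM. The summed level of the 8 markers was 402, 466 and 706 RPKM, CDX1 was not listed, and MUC2 and FABP2 had at most 1 read in a library. By RPKM, VIL1 and CDX2 shared the order of the lines with CDH17 and LGALS4. For CDX2, with 28, 42 and 62 reads, neither step of this order was beyond counting error. Its fold was 1.46 (0.884 to 2.45) for subclone1 over the parent and 1.44 (0.958 to 2.18) for subclone2 over subclone1. Only subclone2 over the parent, at 2.10 (1.33 to 3.41), excluded 1. For VIL1 the intervals of both steps excluded 1, that of subclone1 over the parent only narrowly. KRT20 was not higher in subclone1 than in the parent, and TFF3 was highest in subclone1. The part of intestinal genes in the difference of LGALS4 was not tested.

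**Figure D5:**
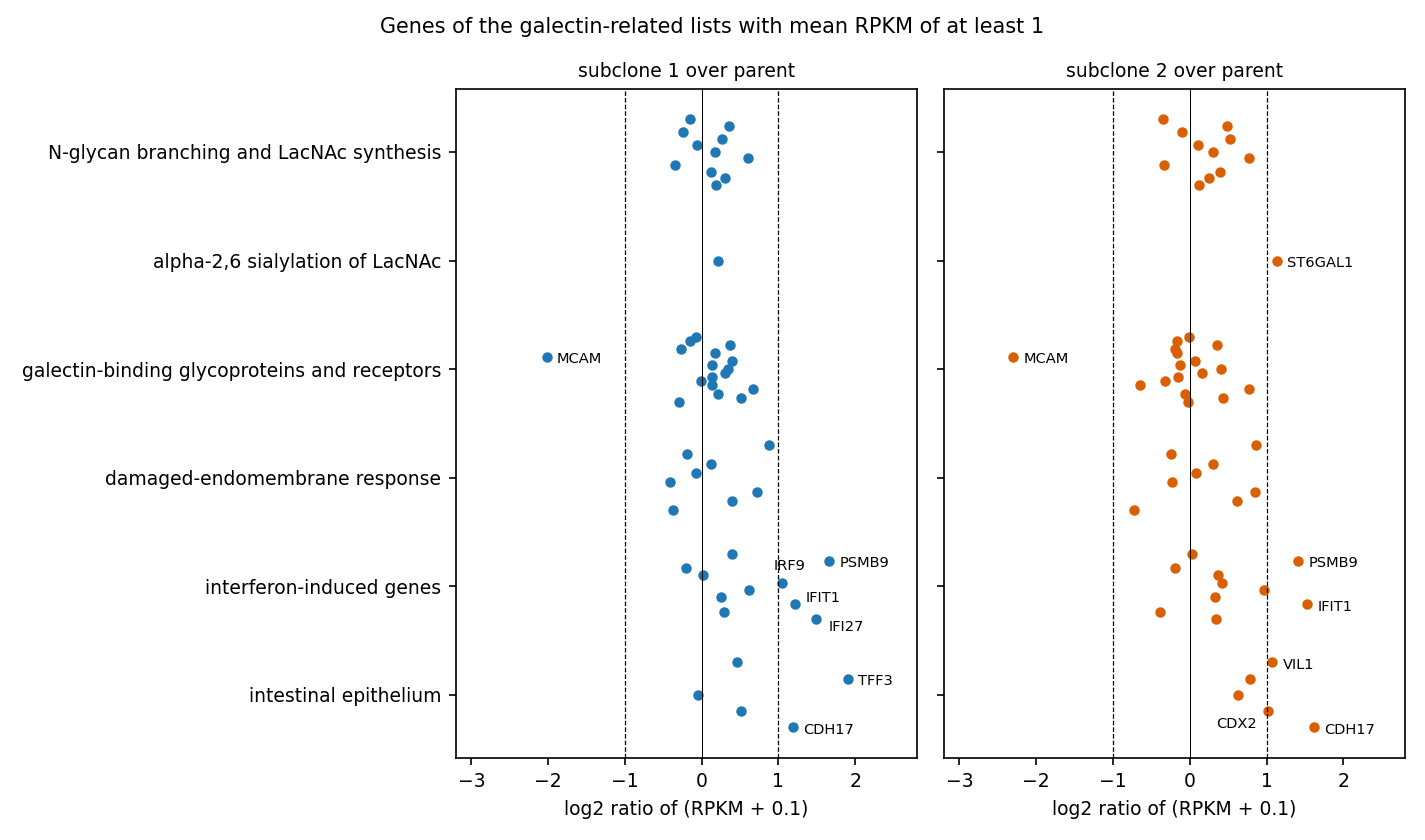
log2 ratio of (RPKM + 0.1) over the parent for the genes of the 6 lists shown that averaged 1 RPKM or more, in subclone1 (left) and subclone2 (right). Each point is a gene, dashed lines mark 2-fold and genes past it are named. Among the genes shown, MCAM is the one below the lower line, and ST6GAL1 is past the upper line in subclone2 only.

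Markers of other cells that a culture could hold were examined as well. Of 7 fibroblast markers, COL1A1 and COL1A2 had under 1 RPKM in every library and PDGFRB was not listed, while LUM (10.1, 24.0 and 21.0 RPKM) and DCN (0.773, 4.42 and 2.75 RPKM) were at least 2-fold higher in both subclones and COL3A1 (4.42, 2.21 and 0.463 RPKM) was lower in subclone2. The list summed to 15.7, 31.2 and 24.3 RPKM. Of 5 endothelial markers, which summed to 5.11, 11.9 and 7.60 RPKM, PECAM1 (3.33, 9.81 and 4.46 RPKM) was past 2-fold in subclone1 and KDR (1.36, 1.93 and 3.08 RPKM) in subclone2, and CDH5 and VWF had at most 2 reads. Of 6 markers of leukocytes and macrophages, which summed to 77.1, 115 and 102 RPKM, almost all of the level was CD68 (75.3, 112 and 99.6 RPKM), a lysosomal protein that is abundant in macrophages, and the defining marker PTPRC had 1 read in the parent and none in the subclones. The part of other cells in the levels of the galectins was not tested.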

How the data were processed

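Messenger RNA of 3 lines (1 library each, from a kit that does not mark strand) was measured by RNA sequencing, and the groups were taken from the labels. The authors deposited RPKM values per gene, made on hg19 according to the submitters' processing notes. The aligner, the counting tool and the annotation are not given in the sources used here. Genes without a value in a library are left out of its list and were set to 0. The genes described here, the gene lists and the motifs were chosen with earlier results of these data known.

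Because RPKM is whole reads divided by length and by the library total, reads were recovered from the common steps of the values. Totals of 4488825, 4609696 and 4725150 reads (parent, subclone1, subclone2) followed from 3461 low genes, of which 91.6% gave a whole length. The smallest length that gave whole reads in every library was accepted at 0.6 times the median to 1.5 times the longest GENCODE transcript, and was otherwise raised to a multiple that differed from a transcript by no more than 10%. The recovered genes held 98.7% of each total. The recovery was tested on simulated data. These reads were used for intervals and floors (95%, 3 reads for a gene at 0), which cover counting error only.

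Ratios were log2 of (RPKM + 0.1), which understates the change of low genes, and the background was 11370 genes that averaged 1 RPKM or more. No test was run, since each line has 1 library. Named were every member, list genes past 2-fold (at most 4 per list) with the most abundant of each list, the 3 genes with the nearest ratios (1 of them is not reported here), and the 3 listed genes on each side of LGALS2, LGALS4 and LGALS9. Exon counts are from GENCODE 29 and promoters from RefSeq, both on GRCh38. The alternatives were other pseudocounts, scalings, thresholds and filters. Python 3.11.15, numpy 2.4.6, pandas 2.3.3, scipy 1.17.1, numba 0.67.0 and matplotlib 3.10.9 were used.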

Additional observations from a re-analysis of the deposited data

How the results depend on the processing

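Of 150 alternative values of the members' log2 ratios, 146 stayed within counting error of the value reported, 2 moved and 2 reversed. The 146 include LGALS2 over the parent, whose intervals have no upper limit, so no higher value could leave them. Divided by ACTB, LGALS3BP was 0.34 for subclone1 over the parent, LGALS4 was 1.05 for subclone2 over subclone1, and LGALS3BP turned to 0.041 in the latter comparison (0.033 with GAPDH). The ratios of LGALS3 and LGALS9 in that comparison, whose intervals held 1, also changed sign, to 0.11 and 0.11 with ACTB and 0.10 and 0.10 with GAPDH. ACTB shifted the median of all genes to -0.13 for subclone1 over the parent and 0.16 for subclone2 over subclone1, and GAPDH shifted the latter to 0.15, so the ratios of LGALS4 and LGALS3BP moved with all genes. The log2 ratio of LGALS2 depended on the added constant, from 2.96 to 9.41 in subclone1 and from 2.69 to 9.09 in subclone2, and has no meaning beyond its lower bound. LGALS2, LGALS4 and LGALS9 were the 3 members past 2-fold over the parent under each alternative, and between the subclones 1 member, LGALS4, was past the threshold with ACTB, GAPDH or 1.5-fold. All 18 alternative shares of the galectin sum stayed within counting error.

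For the 48 list genes, 2 were higher in subclone1 with 1 RPKM added, and 5 were higher in subclone2 with GAPDH. At 1.5-fold 10 were higher in each subclone and 3 lower in subclone2. Between the subclones 1 was higher with ACTB, GAPDH or 1.5-fold and 4 were lower at 1.5-fold. The percentages of all genes higher and lower are given in the order subclone1 over the parent, subclone2 over the parent, subclone2 over subclone1. Adding 1 RPKM gave 3.05% higher with 1.03% lower, then 3.34% with 1.32%, then 0.704% with 0.677%. The 1.5-fold threshold gave 11.6% with 7.46%, then 12.7% with 7.30%, then 4.75% with 4.11%. No filter gave 9.43% with 5.47%, then 9.62% with 5.83%, then 5.21% with 5.59%. A filter at 5 RPKM gave 2.84% with 0.865%, then 3.08% with 1.13%, then 0.524% with 0.560%. With ACTB, 2.88% were lower in subclone1. Of the genes past 2-fold, the share that was higher moved from 72.9% to 57.8% with ACTB for subclone1 over the parent, and from 50.5% to 64.0% with ACTB and 62.6% with GAPDH for subclone2 over subclone1. No paired analysis was possible because each line has 1 library, which also leaves no replicate to omit. Depth limits LGALS2 and LGALS9 most, with at most 17 and 88 reads.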
